A study of Mus musculus with 6 samples.

Results

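p53, the transcription factor encoded by Trp53 in the mouse, and 9 genes that it is known to switch on were followed in mouse embryonic stem cells (mESCs). The 9 target genes were Mdm2, Cdkn1a, Ccng1, Zmat3, Bax, Bbc3, Pmaip1, Trp53inp1 and Phlda3. The members were the rows of the count table whose Ensembl identifier maps to these symbols, which gave 10 of 43309 genes. All 10 had at least 10 counts in a library and were among the 16823 genes tested.

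p53 is held at a low protein level by Mdm2, an E3 ubiquitin ligase that p53 itself induces, so that the pair forms a feedback loop. After DNA damage or other stress the protein is stabilised and binds response elements near genes of growth arrest, apoptosis and repair. mESCs are known for a high level of Trp53 mRNA and for a short G1 phase with little Cdkn1a. Only mRNA was measured here, so the amount and activity of the p53 protein were not seen.

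The study used these lines to compare RNA-Seq library kits. The control group comprised 3 lines labelled Zbtb24 wild-type (2lox/+), and the other group 3 lines labelled Zbtb24 knockout (1lox/1lox). All lines are of strain J1 (129SV) and were grown on gelatin without feeders in medium with serum, and no treatment was labelled. By their labels the controls carry 1 2lox allele beside 1 wild-type allele, and a 1lox allele is what recombination between loxP sites leaves. The study's methods call the lines clones and biological replicates. On that description the p-values measure the spread between clones, which the counts cannot check. Each line gave 1 TruSeq Stranded mRNA library from 2 μg of total RNA with 8 PCR cycles.

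Total counts ranged from 26987179 to 27754105 in the control libraries and from 25042261 to 28838924 in the other group. No library was a repeat deposit of another, since the counts of each of the 6 pairs within a group differed by more than sampling noise (chi-square test over genes, highest p = 3.34e-34). This holds for any separate preparations and does not bear on whether the lines are independent. The typical coefficient of variation between lines beyond counting noise, the square root of edgeR's common dispersion, was only 2.00%. The measured levels of single genes can vary by more. The quasi-likelihood test of edgeR called 69.5% of the genes tested, at a Benjamini-Hochberg adjusted p (FDR) no higher than 0.05. Of all genes tested, 35.2% were called lower and 34.4% higher in the libraries labelled knockout. The counts of the p53 genes are therefore read against these shares. Zbtb24 itself had 489 to 512 counts in the controls and 888 to 1039 in the other group (log2 fold change 0.99, standard error 0.05, adjusted p = 4.32e-23). Its count over the whole gene thus went against the label, the exons it came from cannot be seen, so this group is named by its label alone. Of 10 embryonic stem cell markers, 9 were called higher and 1 lower, and their summed level was 4990 to 5103 CPM (counts scaled to library size) in the controls and 6411 to 6460 in the libraries labelled knockout.

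The response element of p53 is a pair of 10-base repeats, each made of 3 purines, a C, 2 bases that are A or T, a G and 3 pyrimidines. The closest match to it was looked for in the promoter windows of RefSeq (GRCm38.p6, 250 bases before to 50 after a transcription start), which were found for 7 of the 10 members. Zmat3, Pmaip1 and Trp53inp1 had no window and were not searched. The element reads alike on both strands. A match with at most 1 mismatch in 20 bases was present in 29 of 32851 windows (0.0883%) and one with at most 3 mismatches in 6.29%. Of the members, 2 had a match with 1 mismatch and 3 had one with 3 mismatches. They are shown because they lie within the promoter windows of genes whose levels are described below, with the core of each repeat in capitals.
Cdkn1a: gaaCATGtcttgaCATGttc
Ccng1: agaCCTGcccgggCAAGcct
Bax: agcATATcccaggCAAGctt
Bbc3: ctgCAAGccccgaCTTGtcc
Trp53: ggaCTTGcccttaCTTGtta
The Cdkn1a match lies at chr17:29090928-29090947 on the plus strand, 51 to 32 bases before the more upstream of its RefSeq starts. In the other windows of Cdkn1a and Bbc3 the closest matches had 5 or 6 mismatches. That of Ccng1 lies at chr11:40755462-40755481 on the minus strand, and that of Bax at chr7:45467090-45467109 on the minus strand. The matches of Bbc3 at chr7:16309486-16309505 and of Trp53 at chr11:69580284-69580303 are on the plus strand. The closest matches of Mdm2 and Phlda3 had 5 mismatches. A match is a description of letters and not a shown binding site, and elements outside these windows were not looked for.

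Trp53 mRNA was at a similar level in both groups, whereas 8 of its 9 targets fell in the libraries labelled knockout and 1, Pmaip1, rose. Over the 9 targets the median log2 fold change was -0.64, against 0.00 over all genes tested. The falls were between 0.25 and 0.94 on the log2 scale. In 5 of the members the fall was by at least 0.5, where 20% of all genes tested were called lower by as much. Of the members, 1 rose by at least 0.5, where 13.9% of all genes did. Control and labelled knockout lines were without overlap in all 10 members, as they were in 71.5% of all genes tested. Because these are bulk samples, fewer cells expressing a gene and less RNA per cell cannot be told apart.

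**Figure D1:**
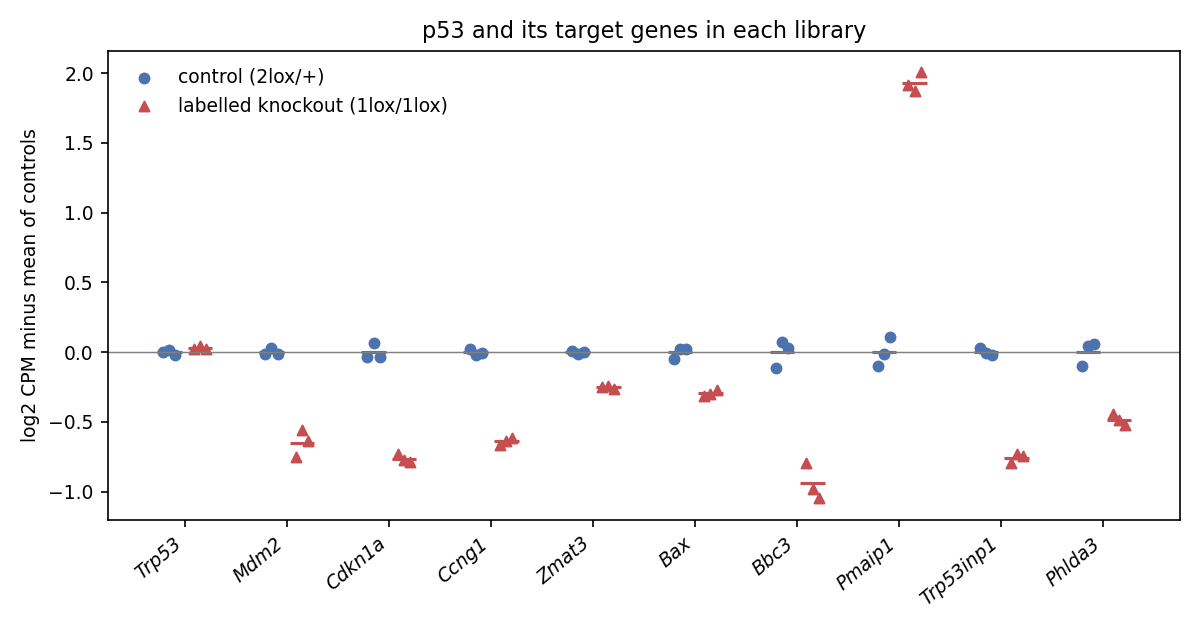
Level of each of the 10 genes in the 6 libraries, as log2 CPM minus the mean of the 3 control libraries (circles, control; triangles, labelled knockout; bars, group means). The triangles of Trp53 sit at the control level, those of Pmaip1 lie 1.93 above it on the log2 scale by the fitted fold change, and those of the other 8 genes lie below it.

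Trp53 (ENSMUSG00000059552, chr11:69580359-69591873, plus strand) was the most abundant member. After TMM normalization it was at 636, 641 and 627 CPM in control lines 1 to 3 and at 645, 654 and 646 CPM in lines 1 to 3 labelled knockout. The lines labelled knockout were all slightly above the controls. The log2 fold change was 0.03 (standard error 0.02, adjusted p = 0.217), so a difference in Trp53 was not detected. Its sign turned to -0.02 when libraries were scaled by their totals alone. The processed pseudogene Trp53-ps had 0 counts in every library, and fragments that map to both copies were discarded by the authors.

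Mdm2 (ENSMUSG00000020184, chr10:117688875-117710758, minus strand), whose product marks p53 for degradation, was at 148, 153 and 149 CPM in the controls. In the lines labelled knockout it was at 89.2, 102 and 96.2 CPM, all below the lowest control. The level fell by 36.2% (log2 fold change -0.65, standard error 0.03, adjusted p = 1.50e-23).

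Among the members of growth arrest, Cdkn1a changed most. It encodes p21, an inhibitor of cyclin-dependent kinases and the best known p53 target. Cdkn1a (ENSMUSG00000023067, chr17:29090976-29100727, plus strand) was at 36.4, 39.1 and 36.5 CPM in the controls and at 22.4, 21.8 and 21.6 CPM in the lines labelled knockout. The groups were far apart compared with the spread of lines, and the level fell by 41.2% (log2 fold change -0.77, standard error 0.05, adjusted p = 8.87e-20). Trp53cor1, a non-coding RNA gene beside it that p53 is known to induce, was near the detection limit with 3 to 10 counts per library, too few to compare, and was named after its values were seen.

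Ccng1 (ENSMUSG00000020326, chr11:40748552-40755311, minus strand) encodes cyclin G1, which recruits a phosphatase to Mdm2. It was at 359, 349.8 and 353 CPM in the controls and at 224, 228 and 231 CPM in the lines labelled knockout. The difference was many times the spread of lines, and the level fell by 35.8% (log2 fold change -0.64, standard error 0.02, adjusted p = 8.19e-28). Zmat3 (ENSMUSG00000027663, chr3:32334792-32366014, minus strand), a zinc finger RNA-binding protein, was at 133, 131 and 133 CPM in the controls and at 111, 112 and 110.1 CPM in the lines labelled knockout. Its fall of 0.25 on the log2 scale (standard error 0.03, adjusted p = 3.50e-11) was the smallest of the 8.

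The members of apoptosis moved in opposite directions. Bax (ENSMUSG00000003873, chr7:45461697-45466898, minus strand), which permeabilises the mitochondrial outer membrane, was at 178, 187 and 187 CPM in the controls. In the lines labelled knockout it was at 148, 149.7 and 152 CPM. Every line labelled knockout was below every control, and Bax fell by 0.29 on the log2 scale (standard error 0.03, adjusted p = 1.29e-13). Bbc3 (ENSMUSG00000002083, chr7:16308393-16318205, plus strand) encodes Puma, a BH3-only activator of Bax. It was at 15.7, 17.8 and 17.3 CPM in the controls and at 9.76, 8.57 and 8.18 CPM in the lines labelled knockout. This fall of 0.94 on the log2 scale (standard error 0.07, adjusted p = 2.50e-16) was the largest among the members, and also the one with the lowest counts, 211 to 490 per library.

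Pmaip1 (ENSMUSG00000024521, chr18:66458533-66465565, plus strand) encodes Noxa, another BH3-only protein, which binds Mcl1. It was at 13.3, 14.1 and 15.4 CPM in the controls and at 53.8, 52.2 and 57.3 CPM in the lines labelled knockout. All lines labelled knockout were thus far above all controls, at a level 3.82-fold higher (log2 fold change 1.93, standard error 0.05, adjusted p = 9.14e-35). Its log2 fold change was at percentile 98.9 of all genes tested.

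Trp53inp1 (ENSMUSG00000028211, chr4:11156431-11174379, plus strand), a stress protein that acts in apoptosis and autophagy, was at 196, 191 and 189 CPM in the controls and at 111, 116 and 115 CPM in the lines labelled knockout. The groups were clearly separate, and the level fell by 40.8% (log2 fold change -0.76, standard error 0.03, adjusted p = 8.77e-29). Phlda3 (ENSMUSG00000041801, chr1:135766119-135769136, plus strand), an inhibitor of Akt signalling, was at 38.2, 42.2 and 42.6 CPM in the controls and at 30.1, 29.2 and 28.5 CPM in the lines labelled knockout. It fell by 0.49 on the log2 scale (standard error 0.05, adjusted p = 1.93e-13). The 980 genes of chromosome 1 had a median log2 fold change of 0.50, so that relative to its chromosome Phlda3 stood at -0.98. The chromosomes of the other members had medians between -0.07 and 0.04, and no call rests on them.

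The members span a wide range of levels, compared here per length as fragments per kilobase of exon, scaled to library size (FPKM, mean ± SD, n = 3 lines). In the controls Trp53 was the highest at 157 ± 1.8 FPKM, followed by Bax at 117 ± 3.2 and Ccng1 at 101 ± 1.4. Trp53inp1 at 29.7 ± 0.55 and Mdm2 at 29.5 ± 0.48 did not differ beyond their spread. Phlda3 at 26.3 ± 1.5 was just below them, and then came Zmat3 at 11.6 ± 0.11, Cdkn1a at 10.5 ± 0.43, Bbc3 at 7.97 ± 0.53 and Pmaip1 at 5.22 ± 0.38. In the libraries labelled knockout Pmaip1 had moved from the lowest place to 19.9 ± 0.96 FPKM, beside Mdm2 at 18.8 ± 1.2 and Phlda3 at 18.8 ± 0.51, while Bbc3 was the lowest at 4.16 ± 0.39.

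**Figure D2:**
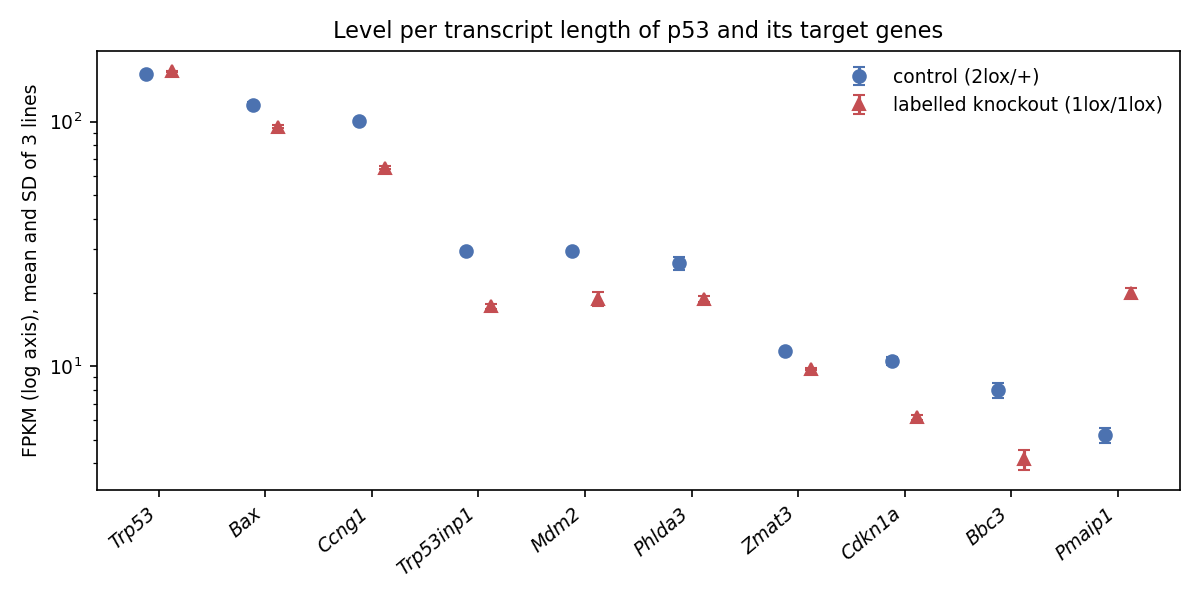
FPKM of the 10 genes on a log axis, ordered by the control level (points, means of 3 lines; bars, SD). The order from Trp53 to Bbc3 is similar in both groups, whereas Pmaip1 goes from the lowest gene at 5.22 FPKM in the controls to 19.9 FPKM in the libraries labelled knockout.

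A list of 49 other genes reported as p53 targets was read from the same test. It was chosen with earlier results of these data known, so its shares describe the list and are not an independent test. Of these, 30 were lower, 8 higher and 11 not called, which is 61.2% lower and 16.3% higher against 35.2% and 34.4% of all genes tested. The median log2 fold change of the list was -0.41. All members had a mean above 100 counts, and of the genes with such a mean 77.1% were called, 35.5% lower and 41.6% higher. By at least 0.5 on the log2 scale, 22 of the 49 genes were lower and 3 higher, where 20% and 13.9% of all genes tested were.

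Large falls in this list were in genes with varied roles. Tap1, a peptide transporter of antigen presentation, had 165 to 220 counts in the controls and 21 to 29 in the libraries labelled knockout (log2 fold change -2.84, standard error 0.15, adjusted p = 2.25e-22). Plk2, a kinase of centriole duplication, had 1497 to 1601 counts in the controls and 336 to 375 in the libraries labelled knockout (log2 fold change -2.07, standard error 0.05). Lif, the cytokine that keeps mESCs undifferentiated, fell by 1.60 on the log2 scale, and Tgfa, a ligand of the EGF receptor, by 1.57. Dcxr, Rap2b and Ak1 fell by 1.38, 1.32 and 1.28. In all 7 of these genes, which were picked for their large changes, every line labelled knockout was below every control. Groups were without overlap in 71.5% of all genes tested.

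Other genes of the list, all named after their values were seen, ranged from clear falls to no call. Aen, an apoptosis-enhancing nuclease, went from 190.5 ± 2.4 CPM to 111 ± 1.2 CPM (SD, n = 3 each, log2 fold change -0.78). Perp, a membrane protein of desmosomes, had a log2 fold change of -0.93 and Eda2r, a receptor of the TNF receptor family, one of -0.84. Apaf1, which builds the apoptosome, had -0.61 and Sfn, the 14-3-3 sigma protein, -0.59. Smaller falls were measured in Btg2, an antiproliferative gene, at -0.34 and in Sesn2, a stress-induced sestrin, at -0.26. Among the 11 genes not called were the sestrin gene Sesn1 (log2 fold change 0.06), Rps27l (-0.06), Psrc1 (-0.03), Cdip1 (-0.02) and the repair gene Ercc5 (0.04). The genes that rose were Ikbke (log2 fold change 1.06), Trp53i11 (0.66), Tigar (0.56), Xpc (0.48), Ddit4 (0.34), Rrm2b (0.24), Fbxw7 (0.21) and Ppm1d (0.16). Ikbke lies on chromosome 1 and stood at 0.56 relative to the median there. Btg2 and Ercc5 lie on chromosome 1 too and stood at -0.84 and -0.46 relative to that median. Tigar and Xpc lie on chromosome 6 and stood at 0.40 and 0.31 relative to its median, and Tigar is among the 275 genes beyond 100 Mb of that chromosome, whose median was 0.50. Genes of chromosomes 1, 6 and 8, whose medians were 0.50, 0.16 and -0.20, were left out in a split that was not planned. Of the 40 genes left, 27 were lower (67.5%) and 5 higher (12.5%). Of the 9 genes left out, 3 were lower and 3 higher. The shares of all genes on and off these chromosomes were not computed, so this split is not read as a result about the targets.

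**Figure D3:**
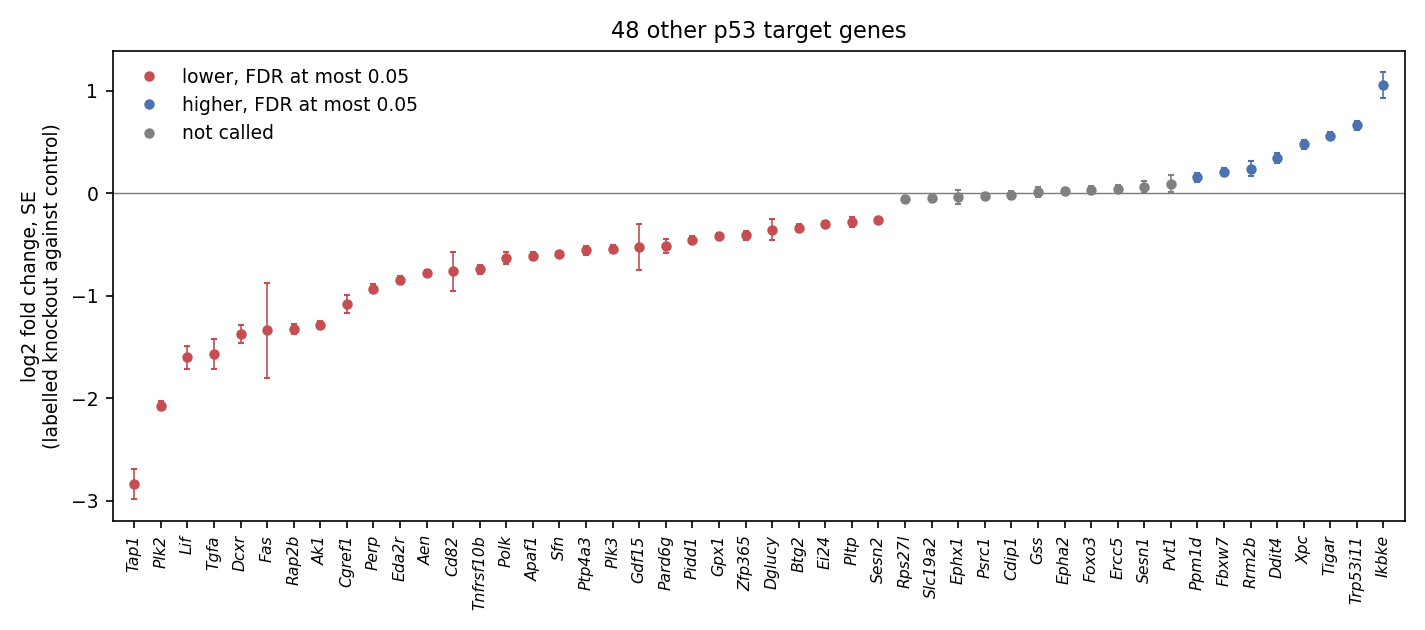
Log2 fold change of 48 of the 49 other p53 target genes in the libraries labelled knockout against control, with its standard error (red, lower and blue, higher; grey, not called). The 29 lower genes shown reach from -2.84 in Tap1 towards 0, and the 8 higher genes end with Ikbke at 1.06.

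The lines were grown without feeder cells, but markers of fibroblasts moved with these falls. Of 7 such markers, 6 were tested and all 6 were lower, and Lum had 0 counts. Their summed level was 56.0 to 59.5 CPM in the controls and 9.53 to 10.1 CPM in the libraries labelled knockout, with Col1a1 at 1095 to 1188 counts against 92 to 110, and Postn at 0 in the libraries labelled knockout. The other marker lists did not move one way. Of 6 neural progenitor markers 3 were lower and 3 higher, of 6 trophoblast markers 3 and 2, and of 7 extraembryonic endoderm markers 3 and 1, with Afp not tested. Among all genes tested, 35.2% were lower and 34.4% higher. Within these lists single genes moved far in both directions. Nes fell by 2.33 on the log2 scale and Neurod1 by 1.67, whereas Olig2 had 1 to 2 counts in the controls and 269 to 313 in the libraries labelled knockout. The trophoblast markers Hand1 and Krt7 both fell by 3.15 on the log2 scale, and Tfap2c rose by 0.41. The summed levels hide these changes. Neural progenitor markers summed to 287 to 294 CPM in the controls and 274 to 284 CPM in the other group, trophoblast markers to 78.9 to 83.3 and 78.5 to 80.8 CPM, and extraembryonic endoderm markers to 10.7 to 11.8 and 9.69 to 11.7 CPM. The part of such cells in the falls of p53 target genes was not tested.

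The regulators of p53 did not share one direction. Of 19 upstream kinases and modifiers, 6 were lower and 8 higher (31.6% and 42.1%), with a median log2 fold change of 0.05. Among all genes tested, 35.2% were lower and 34.4% higher. With library totals alone as the scaling, 7 of the 19 were lower and 4 higher. Setd7, a lysine methyltransferase of p53, fell by 0.99 on the log2 scale and Hipk2, a kinase of p53, rose by 0.57. Cdkn2a, whose Arf product blocks Mdm2, had 303 to 349 counts in the controls and 195 to 239 in the libraries labelled knockout (log2 fold change -0.51, adjusted p = 1.89e-07). The counts do not part Arf from the p16 transcript of the same gene. Of 8 inhibitors and E3 ligases, 2 were lower and 3 higher (25% and 37.5%). Mdm4, the partner of Mdm2, rose by 0.30 (adjusted p = 2.81e-15), but it lies on chromosome 1 and stood at -0.20 relative to the median there. Cop1 rose by 0.57 and stood at 0.07 relative to chromosome 1, whereas Ppp1r13l (iASPP), on chromosome 7, fell by 0.65.

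In the p53 family, Trp73 fell strongly and Trp63 was barely detected. Trp73, which encodes the relative p73 and is itself a p53 target, had 244, 270 and 247 counts in the controls and 48, 57 and 70 in the lines labelled knockout. The groups were far apart, and Trp73 fell by 2.05 on the log2 scale (standard error 0.11, adjusted p = 1.01e-21). Trp63 had 1 to 7 counts in the controls and 5 to 10 in the libraries labelled knockout, too few to compare (adjusted p = 0.192). Of the cofactors, Trp53bp2, on chromosome 1, rose by 0.63 and stood at 0.13 relative to that chromosome.

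The apoptosis partners of Bax, Bbc3 and Pmaip1 were divided. Of 19 other genes of the Bcl2 family and caspases, 9 were lower and 8 higher (47.4% and 42.1%). Among all genes tested the shares were 35.2% and 34.4%. The median log2 fold change of the 19 genes was -0.02. Bcl2l11, which encodes the BH3-only protein Bim, went from 79.7 ± 0.64 CPM in the controls to 34.6 ± 2.1 CPM in the libraries labelled knockout (SD, n = 3 each, log2 fold change -1.20). Bad fell by 0.56. Mcl1, the partner that Noxa binds and named after its values were seen, fell by 0.43, from 468 ± 5.6 to 348 ± 3.1 CPM.

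The cyclins, their kinases and the other inhibitors were also divided. Of these 18 genes, 8 were lower and 7 higher (44.4% and 38.9%), against 35.2% and 34.4% of all genes tested. Beside Cdkn1a, the inhibitors Cdkn2b and Cdkn1c fell by 2.11 and 1.94 on the log2 scale, and the cyclin gene Ccnd3 rose by 1.01. Cdkn1c is an imprinted gene. Of 20 cell cycle genes that p53 is known to repress through p21 and the DREAM complex, 15 were higher and 2 lower, against 34.4% and 35.2% of all genes tested. The rises were small, with a median of 0.12 over the list, and were led by Cdc25c (0.55), a phosphatase that activates Cdk1, and E2f1 (0.53), a transcription factor of S phase entry. With library totals alone as the scaling, 11 were higher and 3 lower, and with the dispersion fixed at 0.04 edgeR's exact test called 0 of them, with 2 at an unadjusted p under 0.05. The lower genes were Cdc20, at -0.32, and Gtse1, at -0.27, which is also known as a gene that p53 induces.

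**Figure D4:**
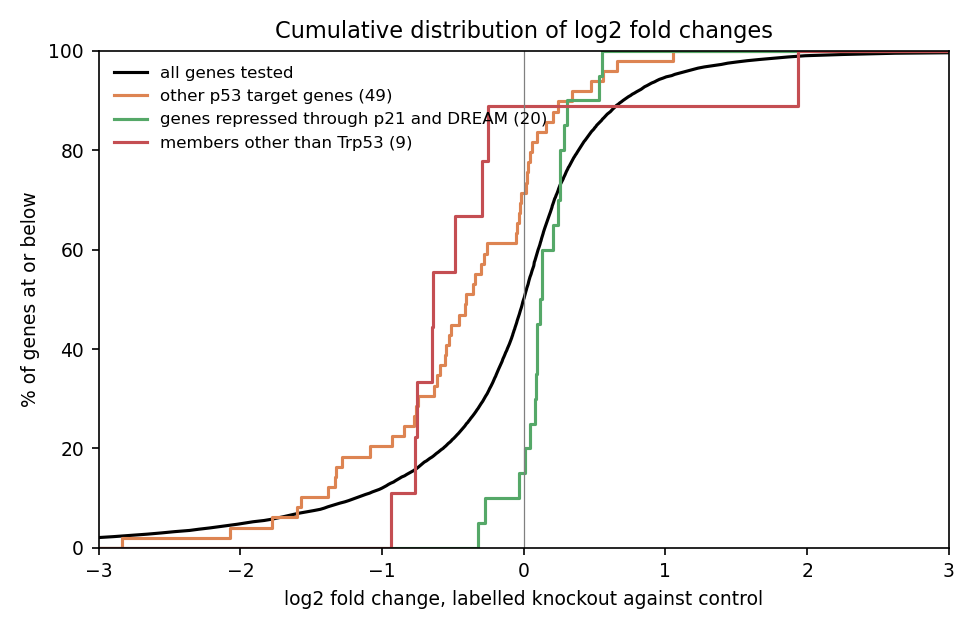
Percentage of genes at or below each log2 fold change for all genes tested (black), the 9 members other than Trp53 (red), the 49 other p53 target genes (orange) and the 20 genes repressed through p21 and DREAM (green). The curves of both target lists lie left of the curve of all genes over most of the range, with medians of -0.64 and -0.41, and the curve of the repressed genes rises steeply just right of 0, with a median of 0.12.

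The promoter matches were also read across all genes tested, those of the lists included. A promoter window was found for 11948 of the genes tested, of which 35.3% were lower and 36.6% higher. Of the 8 genes with a match of at most 1 mismatch, 5 were lower, 0 higher and 3 not called in the same edgeR test. DESeq2 gave the same counts, and 0 were higher at an unadjusted p under 0.05 by either tool. Outside the members and the 49 other targets, 5 of these 8 genes remained to be counted, of which 3 were lower and 0 higher, with a median log2 fold change of -0.07. Among all 8 genes, those lower were Sptbn4, Cdkn1a, Ccng1, Gtse1 and Mthfd1. Their log2 fold changes ran from -1.03 in Sptbn4 to -0.07 in Mthfd1. The 3 lower genes outside the members and the 49 other targets include Gtse1, which p53 is also known to induce. Rps27l missed the threshold (log2 fold change -0.06, adjusted p = 0.052). Calhm2 and Bco1, also not called, lay above 0, at 0.19 (standard error 0.16) and 0.64 (standard error 0.51). Both had low mean counts, 56.3 in Calhm2 and 6.67 in Bco1. Of the 102 genes with 2 mismatches, 49% were lower and 26.5% higher. With 3 mismatches the shares were 37.2% and 37.1%, close to those of all genes with a window. The genes with 2 mismatches include 4 near-identical copies of the Usp17l family, which share their promoter letters and whose counts leave out fragments that map to several copies. Trp73 and Zfp365 were among the genes with 2 mismatches. These and the closest matches of Rps27l and Gtse1 are shown for comparison with the members.
Gtse1: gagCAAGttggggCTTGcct
Rps27l: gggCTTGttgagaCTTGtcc
Trp73: gggCAAGctgaggCCTGccc
Zfp365: agaCTAGgctgggCAAGact
The Gtse1 match lies at chr15:85859945-85859964 and that of Rps27l at chr9:66946296-66946315, both on the plus strand. Those of Trp73 at chr4:154097220-154097239 and Zfp365 at chr10:67912706-67912725 are on the minus strand. The division by mismatches, and the genes named from it, were chosen after their values had been seen.

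**Figure D5:**
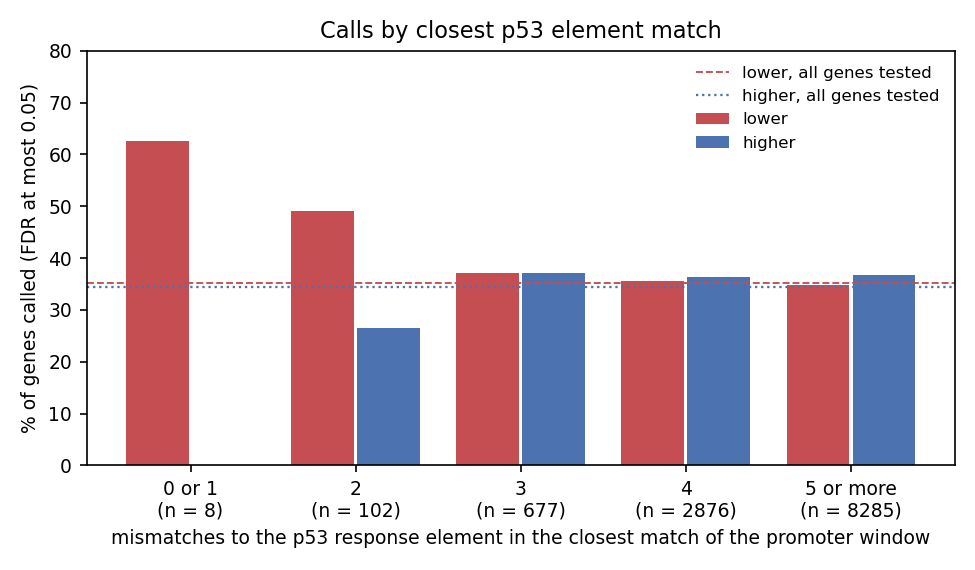
Percentage of genes called lower (red) and higher (blue) by the number of mismatches in the closest match to the p53 element within the promoter window, with the shares of all genes tested as dashed and dotted lines. With 0 or 1 mismatch 62.5% of 8 genes are lower and 0% higher, with 2 mismatches 49% and 26.5%, and from 3 mismatches on the bars are near the lines.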

How the data were processed

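After rRNA reads had been set aside (Bowtie2 2.1.0), the authors aligned reads to mm10 (TopHat2 2.0.10, versions per the submitters' processing notes). Strand-specific gene counts came from HTSeq 0.6.1 and GENCODE Release M4, and fragments assigned to more than 1 gene or place were dropped. The deposited table holds raw counts by gene, without normalization. Each column was matched to its sample by title, and the groups come from the labelled genotype. Symbols, positions and exon lengths came from GENCODE Release M21 on the same build, by Ensembl identifier. Genes reaching 10 counts in any library were tested with edgeR 4.0.16 in R 4.3.3 (TMM, quasi-likelihood test, no covariate, Benjamini-Hochberg FDR at most 0.05 over all 16823 genes). The standard error is the log2 fold change divided by the square root of F. The script was tested on simulated data. CPM use the TMM library sizes, and FPKM the union of exons. No molecular identifiers were used, so counts are not independent molecules.

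The members and gene lists were chosen with earlier results of these data known. Named genes are the members, Zbtb24, Mdm4, Ppm1d, Cdkn2a, Trp63, Trp73 and, of each other list, the called genes averaging 50 or more counts that have the largest absolute log2 fold change (up to 8 of the other targets and 3 of each other list). Of the marker lists only those bearing on the results are named. Alternatives were other tests (DESeq2 1.42.0 and edgeR's exact and likelihood ratio tests), scalings, filters, fold minimums, the replicate block and leaving out each library. Of the genes this rule names, 2 are not reported here, though the counts of their lists include them.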

Additional observations from a re-analysis of the deposited data

How the results depend on the processing

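Of the 10 members, 9 were called, 8 lower and 1 higher, with every other test, scaling and filter, with the replicate number as a block, and without each library in turn (9 to 9). Leaving out libraries gave 36 to 39 of the other targets and 11059 to 11304 genes in all. A minimum change of 0.5 on the log2 scale left 6 members, 25 other targets and 5696 genes, and one of at least 1 left 1, 11 and 2865. With the dispersion fixed at 0.04, a setting added after the data were seen, 6 members, 19 other targets and 4342 genes were called, and at 0.16 they were 1, 5 and 1456. Zmat3, Bax and Phlda3 were lost at 0.04, and of the members only Pmaip1 was called at 0.16. The log2 fold change of Trp53 changed sign with library totals only (-0.0176) and relative to the median of its chromosome (-0.0124), and was not called in any setting. Same-numbered lines had correlations of 0.0166, 0.0734 and 0.0135 over 12360 genes, and lines of different numbers had -0.0728 to 0.0526. A pairing by number was not clearly seen, but values this small cannot exclude one. The replicate block gave 9 members, 38 other targets and 11801 genes.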
